A study of Mus musculus with 18 samples.

Results

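Hepatocyte overexpression of YAP was set against a GFP control in livers of mice fed ethanol. The comparison used 6 of the 18 liver libraries of the series, taken by the group their labels give, with 3 libraries in each group. All mice of both groups carried floxed Yap alleles (Yap fl/fl) and received no Cre, so their own Yap gene was in place. At 8 weeks of age the overexpression group was given AAV-TBG-YAP-P2A-EGFP and the control group AAV-TBG-GFP, each at 2e+11 genome copies per mouse. AAV is an adeno-associated virus, and TBG is a promoter active in hepatocytes, whereas the RNA came from whole liver with all its cell types. Liquid feeding started 2 weeks after the virus, with 5 days on control diet and then 4 weeks on a Lieber-DeCarli diet with ethanol. One gavage of ethanol (5 g/kg, 33% v/v) was given 9 hours before death. Pair-fed groups with the same viruses, given maltose-dextrin in place of ethanol, are used where the effect on the other diet is shown. The series also holds hepatocyte-specific Yap knockout groups on both diets, given virus at 5e+10 genome copies per mouse. These knockout groups are part of the fit to all 18 libraries described below. The labels number the libraries 1 to 3 without stating that each is a separate mouse, so p-values measure only the spread between libraries. They give neither the sex of the mice nor the species of the YAP sequence.

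YAP is a transcriptional coactivator that the Hippo kinases keep out of the nucleus by phosphorylation. In the nucleus it binds TEAD factors and drives genes such as Cyr61 (Ccn1), Ctgf (Ccn2) and Amotl2, and in liver the pathway is known for its control of organ size and hepatocyte identity. The endoplasmic reticulum (ER) folds secreted proteins, of which hepatocytes make a large amount, and unfolded proteins there engage the sensors ATF6, IRE1 and PERK. ATF6 is cleaved on its way through the Golgi and raises chaperone genes, IRE1 splices Xbp1 mRNA, and PERK slows translation and raises ATF4 and its targets. The title of the series names ER stress and ATF6 as its subject.

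The promoters of 3 ER chaperone genes and 2 YAP target genes are printed because these lists are the ones the comparison turns on. They are RefSeq sequences of GRCm38.p6, and each holds the 250 bases before the gene's start, 5′ to 3′ in the direction of the gene. In the chaperone promoters the capitals mark the fixed letters of the ER stress response element, bound by ATF6 with NF-Y (CCAAT, then any 9 bases, then CCACG, on either strand), and in the YAP target promoters those of the TEAD site (ACATTCC on either strand). Positions count back from the start, with -1 for the base before it.
Hspa5, chr2:34771840-34772089 (plus strand), match at -65 to -47: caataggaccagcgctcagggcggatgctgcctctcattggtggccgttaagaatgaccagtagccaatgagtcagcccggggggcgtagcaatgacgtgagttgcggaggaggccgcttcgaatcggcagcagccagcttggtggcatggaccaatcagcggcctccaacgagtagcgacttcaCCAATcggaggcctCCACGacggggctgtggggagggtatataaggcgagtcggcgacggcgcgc
Creld2, chr15:88819396-88819645 (plus strand), match at -126 to -108: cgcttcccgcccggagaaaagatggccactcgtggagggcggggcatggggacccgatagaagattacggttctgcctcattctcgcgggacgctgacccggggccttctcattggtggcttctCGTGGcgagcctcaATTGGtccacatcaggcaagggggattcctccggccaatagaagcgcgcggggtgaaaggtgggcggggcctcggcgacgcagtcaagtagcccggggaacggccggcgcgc
Hsp90b1, chr10:86705445-86705694 (minus strand), match at -212 to -194 and -107 to -89: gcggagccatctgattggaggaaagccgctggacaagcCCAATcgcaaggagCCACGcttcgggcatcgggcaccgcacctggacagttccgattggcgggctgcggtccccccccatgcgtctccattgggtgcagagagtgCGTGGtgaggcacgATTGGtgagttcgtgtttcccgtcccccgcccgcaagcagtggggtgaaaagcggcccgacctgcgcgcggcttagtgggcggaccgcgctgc
Cyr61 (RefSeq symbol Ccn1), chr3:145649986-145650235 (minus strand), match at -104 to -98: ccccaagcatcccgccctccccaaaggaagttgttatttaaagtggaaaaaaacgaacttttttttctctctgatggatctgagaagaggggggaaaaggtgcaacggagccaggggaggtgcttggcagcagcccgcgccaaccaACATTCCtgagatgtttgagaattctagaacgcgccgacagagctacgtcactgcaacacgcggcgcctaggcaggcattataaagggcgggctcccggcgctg
Amotl2, chr9:102717554-102717803 (plus strand), match at -66 to -60: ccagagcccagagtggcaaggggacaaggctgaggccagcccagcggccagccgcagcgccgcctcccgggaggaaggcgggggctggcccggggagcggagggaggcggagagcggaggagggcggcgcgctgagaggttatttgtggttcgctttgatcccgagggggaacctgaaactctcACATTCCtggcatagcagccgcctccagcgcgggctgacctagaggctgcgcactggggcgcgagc

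The ER stress response element was found in 37 of 32851 promoters of this length, a share of 0.113%. Among the 17 tested members of the ER chaperone list, 14 had a promoter in the table and 7 of these held the element (Hspa5, Hsp90b1, Calr, Canx, Pdia6, Dnajc3 and Creld2). A second form of the element (ATTGG, any 1 base, CCACG, on either strand) was found in 10 promoters (0.0304%), among them that of Herpud1. The TEAD site stood in 1069 promoters (3.25%), in 0 of the 14 chaperone promoters and in 5 of the 17 promoters of YAP target genes with an entry. Of the 10 promoters on hand for the 12 genes called in the comparison below, 2 held the ER stress response element and 0 the TEAD site. The shares of all promoters count each entry. The counts for lists and called genes instead take each gene once, as a match where any of its promoters matched. A match describes these letters in this window and is not evidence of binding.

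Libraries of the 2 groups held 5.18 to 5.81 M reads from a targeted panel that reads 1 amplicon per gene. Levels are given as CPM, the reads of 1 gene per 1 M reads of its library, in the order replicate 1, 2, 3. Changes are differences of mean log2(CPM + 1), overexpression minus control, with the standard error (SE) from a limma fit over all 18 libraries, n = 3 per group, and a fold is 2 to the power of that difference. With the added 1, a fold understates the change of genes at low CPM. A gene was called where the Benjamini-Hochberg adjusted p over the 11720 genes tested was under 0.05. All 6 libraries had Ddx3y at 54.3 CPM or more and Xist at 0.713 CPM or less, whereas 2 of the 3 pair-fed control libraries had Xist at 373 and 423 CPM with Ddx3y at 3.47 and 0 CPM. In whole liver, fewer cells of a type and less RNA per cell cannot be told apart.

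Across all genes, 12 of 11720 were called (0.102%), 8 of them higher (0.0683%) and 4 lower (0.0341%) in overexpressing livers. Before adjustment 1036 genes had p under 0.05 (8.84%), against 586 for a uniform spread of p, and the change of the median gene was -0.00 log2. The higher genes were Hsph1, Pdia4, Creld2, Apol7a, Magt1, Pdia5, Manf and Hspa5, of which 4 were members of the ER chaperone list and 1 of the cytosolic heat shock list. The lower genes were Gpcpd1, Fam134b, Acer2 and Cd300lf. The count rested on single libraries: 0 genes were called without control replicate 2 (814 at an unadjusted p under 0.05) and 0 without overexpression replicate 3 (761 at an unadjusted p under 0.05), and 5 without control replicate 1. Other processing gave 1 call (no filter on low values) to 71 calls (array weights). Replicates 1 and 2 carry barcodes of a low range and replicate 3 of a high range in each group. All 12 genes had the same sign within either range, which was fixed in advance because their groups did not overlap. With the barcode range as a block 8 genes were called, all among the 12, and Hspa5, Manf, Acer2 and Cd300lf did not pass. Of the 44 gene lists, 23 kept the sign of their median change with each ethanol-fed library left out in turn. The other 21 lists, whose medians lay between -0.17 and 0.18 log2, turned sign without at least 1 library, the YAP target, hepatocyte, Kupffer cell and zonation lists among them.

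**Figure D1:**
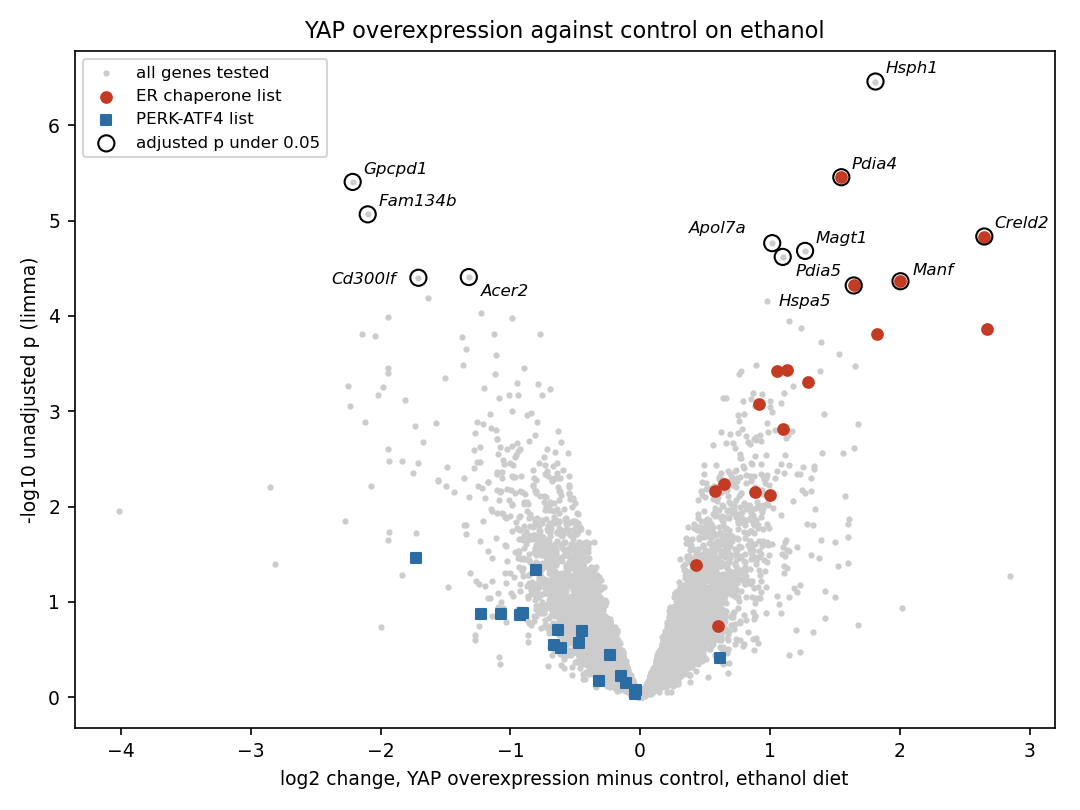
Each point is 1 of 11720 genes, with the log2 change of YAP overexpression against control on ethanol on the x axis and -log10 of the unadjusted limma p on the y axis. Circles mark the 12 called genes, and all 17 red points of the ER chaperone list lie to the right of 0, while 17 of the 18 blue points of the PERK-ATF4 list lie to the left.

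Yap1, the gene delivered by the virus, was measured at 62.5, 66.6 and 58.1 CPM in controls and 144, 115.3 and 106.4 CPM in overexpressing livers. The 3 overexpression libraries all lay above the controls. Its change of 0.94 ± 0.38 log2 (a 1.92-fold level) was not called (adjusted p = 0.449, limma). Where the amplicon lies and whether it reads the transgene is not stated in the labels or files, so this level may miss part of the transgene's RNA. On the pair-fed diet the Yap1 change was 1.15 ± 0.38 (adjusted p = 0.342, limma), with overexpression libraries at 57.6, 155 and 214 CPM, the first of them within the pair-fed control range of 60.7, 51.5 and 53.9 CPM.

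Canonical YAP-TEAD targets did not move together on ethanol. Of 24 tested members 12 were higher and 12 lower, the median change was 0.01 log2, and 0 were called. Cyr61, a secreted matricellular protein used as a YAP readout, was at 4.28, 7.15 and 8.33 CPM in controls and 9.21, 9.95 and 9.64 CPM with overexpression. Its groups did not overlap, but the change of 0.52 ± 0.25 log2 was not called (adjusted p = 0.569, limma). Ctgf, a related matricellular protein, ranged from 3.50 to 17.9 CPM in overexpressing livers around controls of 11.05, 9.27 and 11.5 CPM, with a change of -0.37 ± 0.42. Amotl2, an angiomotin-family scaffold that binds YAP, was at 14.96, 19.5 and 32.3 CPM in controls and 48.6, 37.8 and 32.7 CPM with overexpression. All overexpression libraries were higher, the nearest by a margin of under 1 CPM, and the change was 0.86 ± 0.27 (adjusted p = 0.277, limma). Nuak2, a kinase and YAP target, was at 32.8, 34.95 and 32.3 and 38.5, 46.8 and 64.8 CPM, a change of 0.54 ± 0.21 (adjusted p = 0.41, limma). Non-overlapping groups were found for 3 targets above and 5 below, where 7.43% and 7.54% of all genes tested did the same.

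Members of the Hippo pathway itself spread to both sides. Of 24 tested, 8 were higher and 16 lower, with a median of -0.17 and 0 called. Wwc1 (KIBRA), an upstream activator of the LATS kinases, was at 28.5, 31.5 and 38.3 CPM in controls and 56.3, 64.7 and 47.9 CPM with overexpression, a change of 0.76 ± 0.18 (adjusted p = 0.114, limma). Vgll4, which competes with YAP for TEAD binding, had 16.03, 17.0 and 15.96 CPM in controls and 9.03, 9.39 and 9.30 CPM with overexpression, a change of -0.76 ± 0.19 (adjusted p = 0.138, limma). For both, the groups did not overlap and the spread within a group was small, yet neither passed the threshold. Wwtr1, which encodes the YAP paralog TAZ, was at 7.13, 6.76 and 8.68 and 10.5, 5.71 and 8.44 CPM, a change of 0.08 ± 0.26.

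The ER chaperone list held the largest share of called genes. Of its 17 tested members 17 were higher in overexpressing livers, where 50.0% of all genes were, and the median change was 1.10 log2 against -0.00 over all genes. An unadjusted p under 0.05 for a higher level was reached by 16 of 17 members, against 4.45% of all genes, and 16 of 17 had every overexpression library above every control, against 7.43%. Hspa5, Pdia4, Creld2 and Manf passed the adjusted threshold in the fit to all 18 libraries. A fit to only the 6 libraries compared called 8 genes, 0 of them members of this list. With only the 3 ethanol-fed groups 3 genes were called, again 0 of them members of this list. The list was chosen with earlier results of these data known, so its direction is not independent support.

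Hspa5 (BiP), the main HSP70 of the ER, which also holds the stress sensors inactive, was measured at 673, 722 and 605 CPM in controls and 1446, 1516 and 4114 CPM in overexpressing livers. Overexpression replicates 1 and 2 lay close together at about the same distance above the controls, and replicate 3 was far above both. The gene rose 3.13-fold, by 1.65 ± 0.31 log2 (adjusted p = 0.0467, limma). Of the alternative fits, 6 called Hspa5 and 13 did not.
Pdia4, a protein disulfide isomerase, was at 233, 192 and 199.7 CPM in controls and 424, 521 and 1023 CPM with overexpression. The control libraries were tight, all overexpression libraries were higher, and Pdia4 rose by 1.55 ± 0.24 log2 (adjusted p = 0.0153, limma).
Creld2, an ER-resident and secreted protein induced by ER stress, went from 62.4, 55.8 and 37.3 CPM in controls to 157, 228 and 945 CPM. It rose by 2.65 ± 0.46 log2, a 6.28-fold level (adjusted p = 0.0336, limma), and the third overexpression library held more than the other two together.
Manf, a secreted survival factor retained in the ER by BiP, had 86.4, 169.9 and 131.2 CPM in controls and 335, 375 and 1009 CPM with overexpression. Its rise was 2.01 ± 0.38 log2 (adjusted p = 0.046, limma), again with replicate 3 the highest. The alternative fits called Manf 6 times and did not call it 13 times.

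Members outside the naming rule, chosen after their values were seen, complete the list. Sdf2l1, a component of ER chaperone complexes, was at 18.2, 16.8 and 12.1 CPM in controls and 44.1, 77.0 and 329 CPM with overexpression, a change of 2.67 ± 0.56 (adjusted p = 0.0743, limma). Hyou1, the ER member of the HSP110 family and exchange factor of BiP, was at 61.6, 69.1 and 70.6 and 202, 155 and 437 CPM, a change of 1.82 ± 0.39 (adjusted p = 0.0743, limma). Hsp90b1 (GRP94), the ER form of HSP90, whose promoter above holds 2 ER stress response elements, was at 1142, 1278 and 1255 and 1753, 2191 and 5019.6 CPM, a change of 1.13 ± 0.26 (adjusted p = 0.114, limma). These 3 had every overexpression library above the controls and missed the adjusted threshold. Herpud1, part of the ER degradation machinery, was the single member whose groups overlapped, with 197, 415 and 583 CPM in controls and 602, 382 and 727 CPM with overexpression. The remaining 9 members (Calr, Canx, Pdia3, Pdia6, P4hb, Dnajb11, Dnajc3, Sel1l and Ostc) had changes of 0.43 ± 0.20 (P4hb) to 1.29 ± 0.31 (Dnajb11).

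Summed over the 17 members, the chaperone genes took 5052, 5910 and 5753 CPM in the controls and 9253, 9622 and 19714 CPM in the overexpressing livers. Replicate 3 of the overexpression group held more than the other two together, and it was the highest of all 18 libraries for 16 of 17 members. Without it, 17 of 17 members were still higher, with a median change of 0.80 log2, and 13 had an unadjusted p under 0.05 for a higher level (3.07% of all genes), but 0 of the 17 were called. Within the low barcode range (replicates 1 and 2) the list's median change was 0.84, and within the high range (replicate 3) it was 1.61. Ethanol-fed livers with hepatocyte-specific Yap knockout summed to 5513, 5167 and 5843 CPM. They share neither virus nor dose with these groups (5e+10 against 2e+11 genome copies per mouse).

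**Figure D2:**
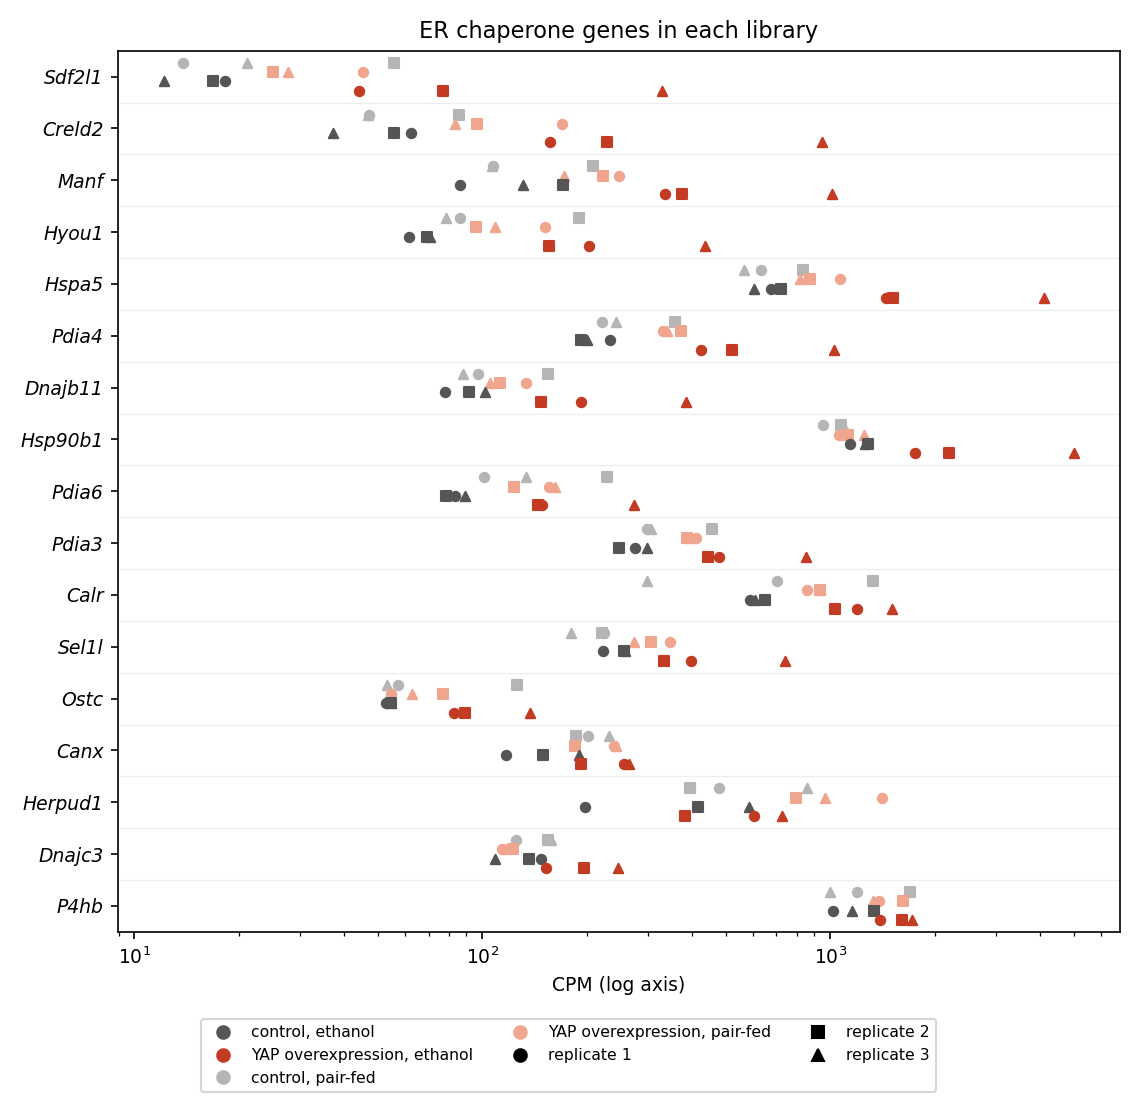
CPM on a log axis for the 17 tested members of the ER chaperone list (rows) in the 4 control and overexpression groups, 1 point per library, with the shape giving the replicate number. Ethanol-fed overexpression libraries (red) lie right of the ethanol-fed controls (dark grey) in all rows except Herpud1, where they overlap, and the triangle of replicate 3 is the rightmost of the 6 ethanol-fed points in 17 of 17 rows.

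The other arms of the ER stress response had smaller median changes. The sensors and their transcription factors had 6 of 9 tested members higher, a median of 0.19 log2 and 0 called. Atf6 mRNA was at 97.3, 124 and 142 CPM in controls and 140.1, 113.7 and 160.0 CPM with overexpression, overlapping groups with a change of 0.19 ± 0.18 (adjusted p = 0.845, limma). The related Atf6b was at 10.5, 7.72 and 9.54 and 19.1, 17.5 and 29.5 CPM, with all overexpression libraries higher and a change of 1.14 ± 0.31 (adjusted p = 0.2, limma). Xbp1, whose mRNA level does not report its splicing, had 485, 532 and 446 and 531, 599 and 609 CPM, a change of 0.25 ± 0.15 (adjusted p = 0.736, limma). These are mRNA levels, and the cleavage of ATF6 was not measured by this assay.

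Of the XBP1 target and ER-associated degradation list, 18 of 19 tested members were higher, with a median of 0.46 log2, 8 at an unadjusted p under 0.05 for a higher level (4.45% of all genes) and 0 called. Without overexpression replicate 3 the median was 0.28, and 4 members reached that unadjusted p without it or without control replicate 1. Syvn1 (HRD1), the ubiquitin ligase of ER-associated degradation, was at 90.3, 104.7 and 87.6 CPM in controls and 208, 155 and 629 CPM with overexpression, a change of 1.53 ± 0.34 (adjusted p = 0.0997, limma). Replicate 3 again held the highest level, and without it the change was 0.93 ± 0.23. Sec23b, a coat protein of vesicles that leave the ER, was at 48.5, 60.6 and 52.6 and 109.8, 102.8 and 186 CPM, a change of 1.24 ± 0.26 (adjusted p = 0.0743, limma). Both had non-overlapping groups, as did 9 of the 19 members, all above, where 7.43% of all genes did.

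The PERK-ATF4 list lay on the other side, with 1 of 18 tested members higher, a median of -0.54 log2, 2 at an unadjusted p under 0.05 (4.39% of all genes for a lower level) and 0 called. Atf3, a stress-induced transcription factor, was at 11.2, 18.2 and 15.96 CPM in controls and 2.53, 6.26 and 3.27 CPM with overexpression, so that all overexpression libraries were lower, and the change was -1.73 ± 0.76 (adjusted p = 0.501, limma). Sesn2, a stress-induced regulator of mTORC1, was at 4.99, 5.21 and 7.11 and 5.60, 1.29 and 2.76 CPM, overlapping in 1 library, with a change of -0.80 ± 0.38 (adjusted p = 0.55, limma). Ddit3 (CHOP), the pro-apoptotic factor at the end of this arm, was the single member with a higher mean, at 9.80, 11.4 and 11.5 CPM in controls and 9.75, 21.0 and 24.1 CPM with overexpression, a change of 0.61 ± 0.70 (adjusted p = 0.89, limma). Non-overlapping groups were found for 5 members, all below, where 7.54% of all genes did the same. Whether this list and the chaperone list differ was not tested.

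**Figure D3:**
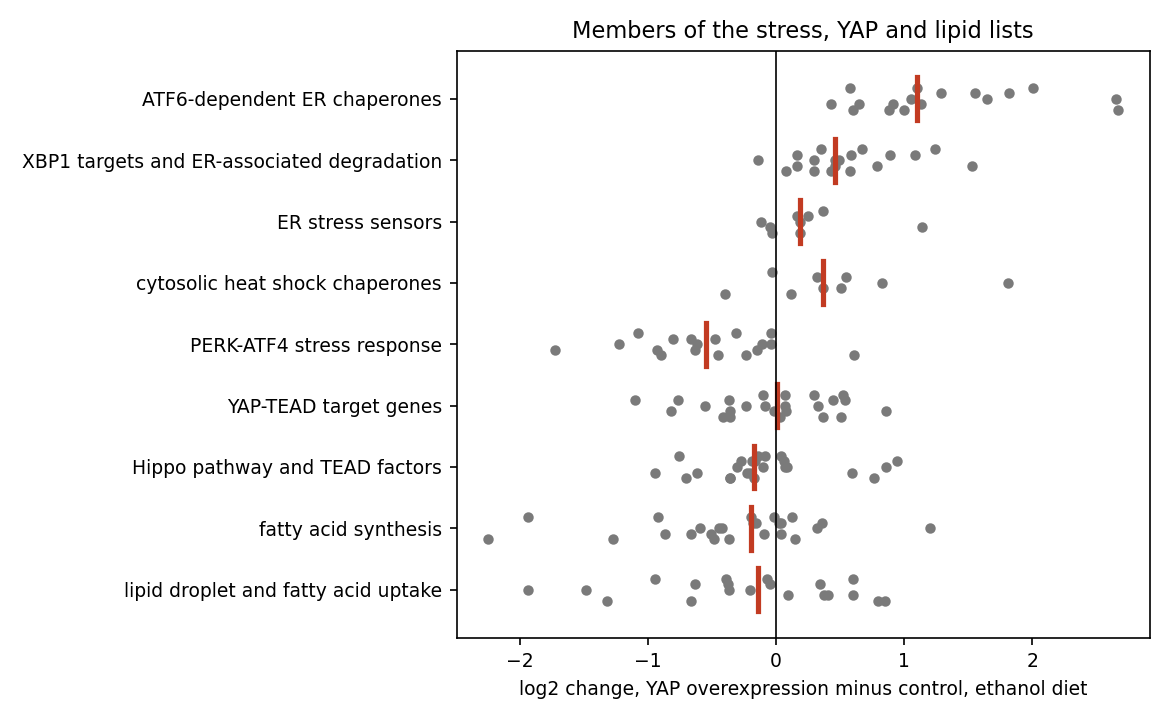
Points are the tested members of 9 gene lists, placed by their log2 change with YAP overexpression on ethanol (x axis), and red bars are the list medians. The median of the ER chaperone list is 1.10 and that of the PERK-ATF4 list -0.54, while those of the YAP target and lipid lists are between -0.20 and 0.01.

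Cytosolic heat shock chaperones had 7 of 9 tested members higher and a median of 0.36 log2. Hsph1 (HSP110), the nucleotide exchange factor of cytosolic HSP70, had the smallest p of all genes. It was at 95.3, 66.6 and 73.0 CPM in controls and 192, 286 and 377 CPM with overexpression, with no overlap between the groups. Hsph1 rose by 1.81 ± 0.24 log2, a 3.51-fold level (adjusted p = 0.00406, limma), and the rise was 1.58 ± 0.25 without that replicate. No other member of the list was called, and Dnajb1 and Hsp90ab1, named after their values were seen, had changes of 0.83 ± 0.29 and 0.55 ± 0.21.

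Among the 12 called genes, 7 belonged to none of the lists. Magt1, a subunit of the oligosaccharyltransferase complex that glycosylates proteins in the ER, was at 30.1, 41.9 and 53.1 CPM in controls and 91.7, 83.1 and 128.999 CPM with overexpression. It rose by 1.27 ± 0.23 log2 (adjusted p = 0.0348, limma), and all overexpression libraries were above all controls. Pdia5, another protein disulfide isomerase, had 212, 129.4 and 169 CPM in controls and 288, 354 and 451 CPM with overexpression and rose by 1.10 ± 0.20 (adjusted p = 0.0352, limma). Apol7a, of the apolipoprotein L family, was at 58.3, 63.2 and 60.6 CPM in controls and 125.3, 134 and 112.8 CPM with overexpression. The replicates of both groups were tight, and Apol7a rose by 1.02 ± 0.18 (adjusted p = 0.0336, limma). Its call depended on the processing: 6 of the alternative fits called Apol7a and 13 did not. Among the 13 were TMM normalization, edgeR (adjusted p = 0.0547, quasi-likelihood) and every fit with an ethanol-fed library left out. In all of these fits Apol7a stayed higher with overexpression. Pair-fed libraries held more of it than either ethanol-fed group, with 264, 235 and 278 CPM in controls and 232, 149 and 236 CPM with overexpression. The other calls varied over the alternative fits too. Hspa5 and Manf were called in 6 and not in 13, and Acer2 in 7 and not in 12. Cd300lf was called in 4 and not in 14, and Creld2, Magt1 and Pdia5 each in 10 and not in 9. The counts were 12 and 7 for Fam134b, 14 and 5 for Pdia4, 16 and 3 for Gpcpd1, and 17 and 2 for Hsph1.

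Of the genes that fell, Gpcpd1, a phosphodiesterase of glycerophosphocholine breakdown, was at 169, 306 and 132 CPM in controls and 45.7, 41.3 and 34.1 CPM with overexpression. The control libraries spread widely and the overexpression libraries did not, and Gpcpd1 fell by 2.21 ± 0.35 log2 (adjusted p = 0.0153, limma). Fam134b (Retreg1), a receptor that delivers ER membrane to autophagy, had 391, 446 and 310.0 CPM in controls and 83.2, 82.3 and 97.8 CPM with overexpression. It fell 4.28-fold, by 2.10 ± 0.35 log2 (adjusted p = 0.0251, limma). Its pair-fed libraries lay near the lower level, at 125.8, 98.7 and 104.04 CPM in controls and 122, 127.5 and 123 CPM with overexpression. Acer2, a ceramidase of the Golgi, was at 40.8, 38.6 and 25.5 and 15.2, 11.2 and 13.3 CPM and fell by 1.32 ± 0.25 (adjusted p = 0.046, limma). Cd300lf, an inhibitory receptor of myeloid cells, is outside the naming rule because its mean is under 5 CPM, and it is named after its values were seen. It was at 5.70, 8.69 and 3.30 CPM in controls and 0.722, 1.10 and 1.21 CPM with overexpression and fell by 1.71 ± 0.32 (adjusted p = 0.046, limma). All 4 had non-overlapping groups, and their changes without overexpression replicate 3 were -2.10 ± 0.39, -2.18 ± 0.40, -1.33 ± 0.29 and -1.78 ± 0.37.

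**Figure D4:**
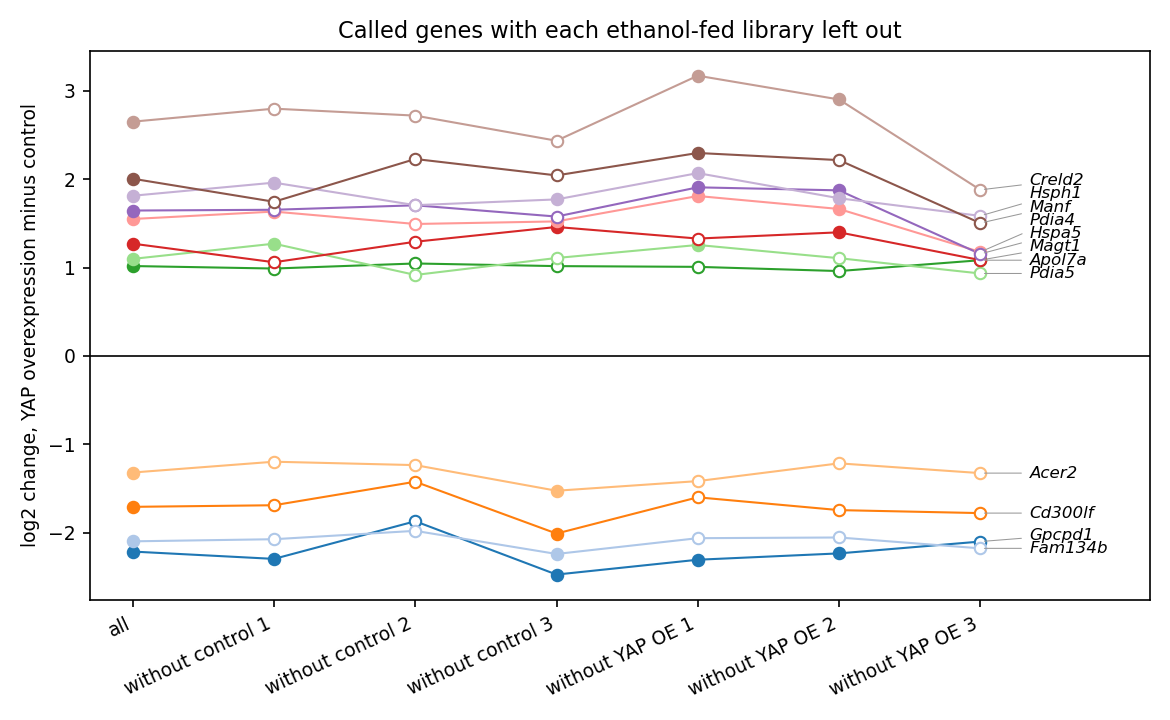
The log2 change of the 12 called genes in the fit to all libraries (left) and with each of the 6 ethanol-fed libraries left out, filled where the adjusted p was under 0.05. No line crosses 0, which follows from the non-overlapping groups of all 12 genes. Creld2 ranges from 1.88 to 3.17 and Apol7a from 0.96 to 1.08, and no point is filled without control 2 or without YAP OE 3.

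Oxidative stress, heme and metal genes had no called member. Hmox1, which degrades heme and is induced by NRF2, was at 96.2, 183 and 349.8 CPM in controls and 41.2, 52.5 and 47.9 CPM with overexpression. Every overexpression library was below every control, and the change was -1.94 ± 0.40 (adjusted p = 0.0728, limma), with edgeR's quasi-likelihood test on the reads giving an adjusted p of 0.0475. The NRF2 list as a whole had 5 of 14 members higher and a median of -0.16. The heme and iron list had 8 of 13 members higher and a median of 0.12. Metallothioneins and zinc transporters had 1 of 6 members higher and a median of -0.17, or 0.03 without control replicate 1. Gclc, the catalytic subunit for glutathione synthesis, overlapped at 95.5, 210.3 and 455 and 471, 442 and 249.9 CPM, a change of 0.83 ± 0.42. Mt1, a metallothionein, was at 4471, 7203 and 4655 CPM in controls and 1737, 1168 and 3374 CPM with overexpression, with no overlap and a change of -1.48 ± 0.77 (adjusted p = 0.616, limma). Slc39a14 (ZIP14), a zinc and iron importer, was at 276, 302 and 205 and 152, 151 and 189 CPM, a change of -0.66 ± 0.19 (adjusted p = 0.235, limma). Hpx, which carries heme in plasma, overlapped between groups with a change of 0.64 ± 0.27.

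Some lipid genes gave large changes that did not pass the threshold. The fatty acid synthesis list had 8 of 25 members higher, a median of -0.20 log2, 4 at an unadjusted p under 0.05 for a lower level (4.39% of all genes) and 0 called. Its median was between -0.54 (without control replicate 2) and -0.04 (without control replicate 1) with 1 library left out. Lpin1, a phosphatidate phosphatase of triglyceride synthesis, was at 2323, 1068 and 1096 CPM in controls and 222, 151 and 747 CPM with overexpression. Every overexpression library was lower, replicate 3 the least so, and the change was -2.25 ± 0.54 (adjusted p = 0.133, limma), or -2.92 ± 0.51 without it. Thrsp (Spot14), a regulator of lipogenesis, was at 1349.9, 994 and 724 and 312, 202 and 270.1 CPM, with no overlap and a change of -1.94 ± 0.56 (adjusted p = 0.224, limma). Of the lipid droplet list 8 of 20 members were higher, with a median of -0.14. Its groups did not overlap for 4 members above and 5 below, where 7.43% and 7.54% of all genes did the same. Plin5, a coat protein of lipid droplets that contact mitochondria, was at 138, 118 and 100.8 CPM in controls and 67.2, 59.9 and 56.1 CPM with overexpression, a change of -0.94 ± 0.23 (adjusted p = 0.138, limma). Cidec, which fuses lipid droplets, was at 49.7, 66.0 and 30.2 and 12.6, 11.2 and 10.3 CPM, a change of -1.94 ± 0.58 (adjusted p = 0.259, limma), and for both genes the groups were apart.

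Fatty acid oxidation under PPARA had 12 of 28 members higher and a median of -0.07. Ehhadh, a peroxisomal oxidation enzyme, was at 287, 406 and 376 CPM in controls and 250.4, 182 and 186 CPM with overexpression, a change of -0.79 ± 0.19 (adjusted p = 0.133, limma), and Cyp4a31, of the fatty acid hydroxylase family, had a change of -0.81 ± 0.34. In cholesterol synthesis and uptake 12 of 23 members were higher (median 0.18), with Tm7sf2, a sterol reductase, at -0.83 ± 0.25 and Srebf2, the factor that drives the pathway, at 0.62 ± 0.27. Apolipoproteins and VLDL assembly had 7 of 20 members higher (median -0.09), with the lipid transfer protein Pltp at -0.94 ± 0.40 and Apob, the structural protein of VLDL, at 0.46 ± 0.24. None of these lists had a called member.

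Glucose and amino acid metabolism had 0 called genes. Igfbp1, an insulin-repressed binding protein of IGF, was at 361, 143 and 255 CPM in controls and 211, 25.6 and 30.5 CPM with overexpression, overlapping through replicate 1, with a change of -2.08 ± 0.67 (adjusted p = 0.292, limma). The gluconeogenesis and glycolysis list had 8 of 27 members higher and a median of -0.16, which turned to 0.07 with 15 higher without control replicate 1. Got1, the cytosolic aspartate aminotransferase, was at 561, 335 and 255 and 77.5, 151 and 152 CPM with no overlap, a change of -1.58 ± 0.42 (adjusted p = 0.185, limma). Sds, which deaminates serine, had a change of -0.999 ± 0.36, and the list of urea cycle and amino acid enzymes had 14 of 34 members higher with a median of -0.06.

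Genes of alcohol breakdown and drug metabolism gave 0 calls. Adh4, an alcohol dehydrogenase, was at 74.1, 47.1 and 81.4 CPM in controls and 141, 151 and 109.5 CPM with overexpression, all higher, with a change of 1.00 ± 0.26 (adjusted p = 0.149, limma). Aldh1a1, an aldehyde dehydrogenase that also acts on retinal, overlapped with a change of 0.75 ± 0.42, and the alcohol list had 8 of 12 members higher with a median of 0.02. Por, the reductase that supplies electrons to cytochrome P450 enzymes, was at 1075, 1326 and 1059.6 CPM in controls and 582, 589 and 592 CPM with overexpression, a change of -0.96 ± 0.30 (adjusted p = 0.272, limma). Its overexpression libraries were almost equal and all were below the controls. Sult1e1, the estrogen sulfotransferase, had a change of -1.49 ± 0.48, and the drug metabolism list had 7 of 22 members higher (median -0.15, or -0.60 without control replicate 1 and 0.03 without control replicate 3). In bile acid synthesis and transport 6 of 21 members were higher (median -0.23), with Cyp27a1, a sterol hydroxylase, at -0.55 ± 0.18 and Nr0b2 (SHP), the repressor of bile acid synthesis, at 1.33 ± 0.50 on levels of 1.78, 4.83 and 2.26 and 17.5, 7.0 and 4.65 CPM.

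Secreted and inflammatory genes had 0 calls. Acute phase proteins had 20 of 23 members higher and a median of 0.40 log2, with 4 at an unadjusted p under 0.05 for a higher level (4.45% of all genes). Groups overlapped for 22 of the 23, and for 9965 of the 11720 genes tested. Without control replicate 3 the median was 0.16, with 15 of 23 higher, and it was 0.23 and 0.26 without overexpression replicates 2 and 3. Itih4, an acute phase protein of plasma, was at 2522, 2069.5 and 2172 CPM in controls and 2744, 4422 and 4365 CPM with overexpression, a change of 0.74 ± 0.25 (adjusted p = 0.32, limma). Interferon-stimulated genes had 19 of 21 members higher (median 0.19), but 13 without control replicate 1 and 14 without overexpression replicate 2. Among them Ifit1, an antiviral RNA-binding protein, was at 2.49, 7.34 and 5.55 and 13.9, 21.7 and 17.6 CPM, a change of 1.68 ± 0.45 (adjusted p = 0.186, limma), and Mx2, an antiviral GTPase, had 1.00 ± 0.32. Complement and coagulation genes were evenly split, 15 of 31 higher, with C8b of the membrane attack complex at 0.91 ± 0.32. Il1b, an inflammatory cytokine, was at 11.4, 7.34 and 5.55 and 1.62, 2.76 and 4.48 CPM, all lower with overexpression, a change of -1.22 ± 0.40 (adjusted p = 0.295, limma), and Il18, of the same family, had -0.64 ± 0.21. The cytokine and chemokine list had 8 of 13 members higher with a median of 0.06.

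Growth arrest and death genes included Cdkn1a (p21), an inhibitor of cell cycle kinases, at 187, 277 and 46.2 CPM in controls and 37.7, 18.97 and 29.5 CPM with overexpression. The third control lay close to the overexpression range without reaching it, and the change was -2.24 ± 0.57 (adjusted p = 0.149, limma). Bcl2l11 (BIM), a pro-apoptotic BCL2 family member, was at 11.6, 8.30 and 8.68 and 1.99, 4.79 and 2.76 CPM, a change of -1.37 ± 0.29 (adjusted p = 0.0743, limma). The p53 and cell death list had 10 of 24 members higher (median -0.07). Cell cycle genes had 15 of 27 higher (median 0.13), with Rrm2, a subunit of ribonucleotide reductase, at -0.85 ± 0.31 and Ccna2, cyclin A2, at -0.73 ± 0.43. Immediate early genes had 5 of 16 higher, a median of -0.54 and 0 called. At an unadjusted p under 0.05, 5 of the 16 were lower (4.39% of all genes) and 2 were higher (4.45%). Zfp36 (TTP), which destabilises cytokine mRNA, was at 59.9, 57.4 and 49.3 CPM in controls and 161, 105.2 and 198 CPM with overexpression, a change of 1.42 ± 0.37 (adjusted p = 0.163, limma), and Klf4, a transcription factor, was at 3.03, 3.28 and 2.60 and 0.903, 0.737 and 0.861 CPM, a change of -1.11 ± 0.30 (adjusted p = 0.197, limma).

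Markers of the cell types in the liver gave 0 calls in every list. Hepatocyte markers had 7 of 18 members higher (median -0.10), and Alb, the main plasma protein of hepatocytes, was at 48413, 34868 and 33320.2 CPM in controls and 25426, 24642 and 26619 CPM with overexpression, all lower, with a change of -0.58 ± 0.31 (adjusted p = 0.629, limma). Summed hepatocyte marker levels ranged from 105167 to 152960.0 CPM in controls and from 102714 to 109639 CPM with overexpression. Sinusoidal endothelial markers had 12 of 19 higher (median 0.14), with the lectin Clec4g at 83.9, 56.4 and 63.0 and 114.3, 99.3 and 158 CPM and a change of 0.85 ± 0.21 (adjusted p = 0.139, limma), and the VEGF receptor Kdr at 0.88 ± 0.24 (adjusted p = 0.208, limma). Stellate cell and fibrosis genes had 3 of 26 higher and a median of -0.25. The filament protein Vim had a change of -0.62 ± 0.36. Kupffer cell markers had 9 of 17 higher (median 0.06), among them the complement gene C6 at 0.89 ± 0.52 and the lysozyme gene Lyz2 at 0.45 ± 0.27.

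Fewer immune genes could be tested. Monocyte and macrophage markers had 5 of 10 members higher (median 0.03), with Plac8 at -0.77 ± 0.33 and the scavenger receptor Msr1 at -0.80 ± 0.45. Neutrophil markers had 6 of 9 higher (median 0.02), with the protease Mmp9 at 1.07, 1.35 and 0 and 1.44, 1.66 and 1.55 CPM. Lymphocyte markers had 6 of 10 higher (median 0.11), with the natural killer cell receptor Klrb1c at 0.74 ± 0.32 and the granzyme Gzma at 0.70 ± 0.35, both under 2 CPM in each of the 6 libraries. Biliary and progenitor markers had 10 of 22 higher (median -0.12), with Sox9, a biliary transcription factor, at 14.3, 15.3 and 10.8 and 9.57, 4.24 and 5.17 CPM, a change of -1.03 ± 0.38, and Anxa5, an annexin, at 0.63 ± 0.37. Of adipocyte and pancreas markers 2 could be tested, the elastase genes Cela2a (-1.17 ± 0.37) and Cela1 (0.10 ± 0.37), and of red blood cell genes 1, Alas2, the erythroid heme synthesis enzyme (0.70 ± 0.49). The part of cell type shares in the results above was not tested.

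Zonation genes were close to balance. Pericentral genes had 9 of 20 members higher (median -0.04), and Lgr5, a pericentral gene of the Wnt pathway, was at 2.32, 1.93 and 2.60 CPM in controls and 11.01, 5.53 and 5.86 CPM with overexpression, all higher, with a change of 1.31 ± 0.41 (adjusted p = 0.272, limma). Periportal genes had 8 of 13 higher (median 0.09), with Cyp2f2, a periportal cytochrome, at 0.56 ± 0.25. Hepatocyte transcription factors had 11 of 20 higher (median 0.07).

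The same overexpression contrast on the pair-fed diet called 17 genes (0.145%), 7 higher (0.0597%) and 10 lower (0.0853%), and it rests on the pair-fed controls of which 2 libraries carry Xist. Without the 5 libraries of the series that have Xist at over 100 CPM, which leaves 1 pair-fed control assumed to vary like the other groups, 2 genes were called. Cyr61 rose on this diet by 1.37 ± 0.25 log2 (adjusted p = 0.0279, limma), from 8.93, 7.48 and 8.22 CPM in controls to 15.7, 29.9 and 24.8 CPM, and its change was 1.26 ± 0.39 without the Xist libraries (adjusted p = 0.679, limma). The chaperone list had a pair-fed median of 0.20 log2 with 14 of 17 members higher (48.1% of all genes) and 0 called, or 0.43 with 16 of 17 higher without the Xist libraries. Its summed level was 8158, 7470 and 7373 CPM in pair-fed overexpressing livers and 5527, 7735 and 5448 CPM in pair-fed controls.

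A test of the difference between diets called 0 of 11720 genes with limma and 0 with edgeR, while 847 reached an unadjusted p under 0.05 (7.23%). The 12 genes called on ethanol all reached that unadjusted level for the difference, and 8 of them did without the Xist libraries. Since they were chosen by their change on ethanol, which is part of that difference, this is a description. For Hspa5 the change was 1.65 ± 0.31 on ethanol and 0.46 ± 0.31 pair-fed, a difference of 1.19 ± 0.44 (adjusted p = 0.538, limma). For Gpcpd1 the changes were -2.21 ± 0.35 and 0.37 ± 0.35, a difference of -2.58 ± 0.49 (adjusted p = 0.0907, limma), and -1.92 ± 0.53 without the Xist libraries. Over the 17 chaperone members the median difference was 1.06, with 12 at an unadjusted p under 0.05, and 0.72 with 4 such members without the Xist libraries. A larger effect on ethanol than on the pair-fed diet was therefore not called for any single gene by limma or edgeR on all 18 libraries. Some other settings, given below, did call genes for the difference.

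**Figure D5:**
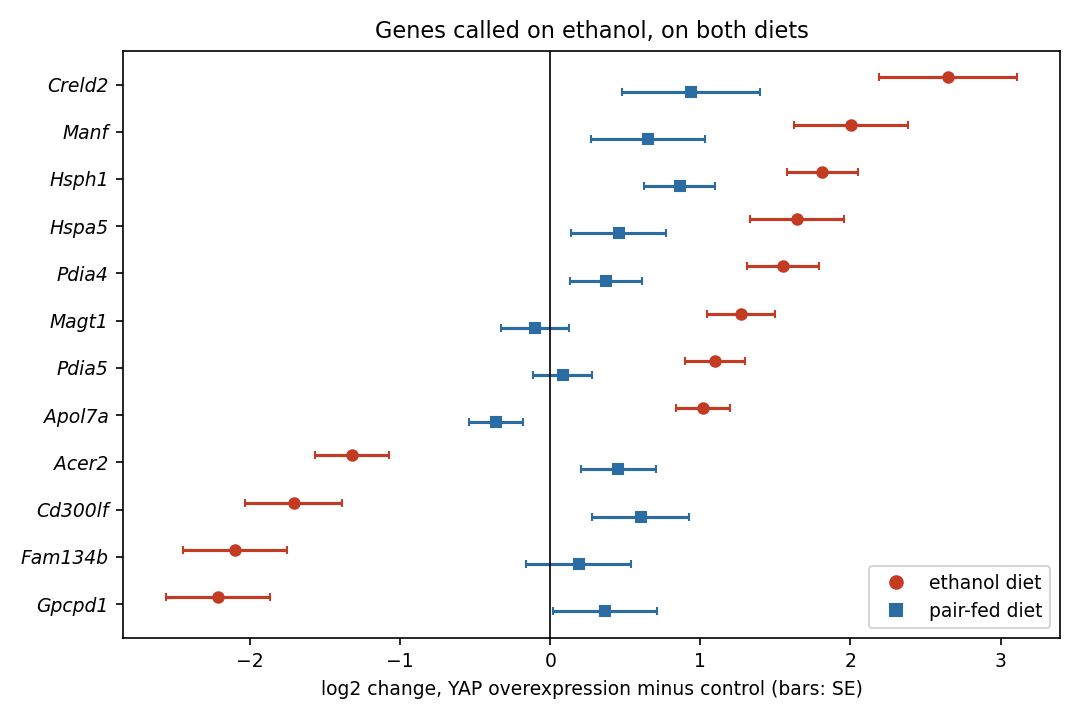
The log2 change with YAP overexpression, with SE bars, for the 12 genes called on ethanol, on the ethanol diet (red circles) and the pair-fed diet (blue squares). The pair-fed changes lie nearer to 0 for all 12 genes, and 6 have the same sign on both diets.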

How the data were processed

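The deposited series table holds CPM values that the authors made from an Ion AmpliSeq mouse transcriptome panel, per the labels, scaled to each library's total. The per-library files hold log2 values deposited by the authors, produced by ampliSeqRNA 5.10.1.2 per the file headers, and they equal log2(CPM + 1) to within 2e-06. No aligner and no genome build is named in the labels or headers. Multiplied by the library's total, 100% of the values came within 0.02 reads of a whole number, so whole reads were recovered.

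The filter kept the 11720 of 23930 genes that reached 1 CPM in 3 or more of the 18 libraries. One model with 6 group means was fitted to log2(CPM + 1), a pseudocount of 1, by lmFit and eBayes with trend (limma 3.58.1, R 4.3.3). Tests were two-sided, with Benjamini-Hochberg adjustment over all genes of a contrast and a threshold of 0.05. The contrasts were overexpression against control on each diet and their difference. edgeR 4.0.16 (quasi-likelihood) was run on the recovered reads as an alternative and called 14 genes on ethanol. These held 10 of the 12 genes called by limma, without Apol7a and Cd300lf. Lists are described by counts and medians. The comparison's members and the gene lists were chosen with earlier results of these data known. Named genes are the up to 15 largest rises and falls among called genes with non-overlapping libraries and a mean of at least 5 CPM, the called members of each list (at most 4, otherwise the 2 smallest p-values), and a fixed set (Yap1, Cyr61, Ctgf, Wwtr1, Atf6, Hspa5, Ddit3, Xbp1, Alb, Xist, Ddx3y). Other alternatives were the filter, the pseudocount, TMM and quantile normalization, a replicate or barcode block, array weights, fewer groups and each library left out. The fits were tested on simulated data. Replicate numbers did not pair the libraries (correlations of same-numbered deviations -0.11, 0.03 and 0.03), and no 2 libraries were duplicates. Motifs were searched as letters in 250 bases before the start. Precision is limited by 3 libraries per group. Values of some single genes are not reported here.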

Additional observations from a re-analysis of the deposited data

Results flagged for a closer look

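For 3 of the 96 named genes the overexpression libraries were all below the controls on ethanol and all above them on the pair-fed diet. The other genes tested were not searched for this pattern, so its share among all genes is not known. Named genes outside the fixed set were chosen by their change, p or separation on ethanol, which is part of the pattern. The count of 3 is therefore a description. In the fit to all 18 libraries the test of the difference between diets passed for none of the 3. Cidec was at 49.7, 66.0 and 30.2 CPM in ethanol-fed controls and 12.6, 11.2 and 10.3 CPM with overexpression, and at 15.8, 4.01 and 6.31 and 30.9, 194 and 17.97 CPM pair-fed, a difference between diets of -4.46 ± 0.82 log2 (adjusted p = 0.0907, limma). It was -3.48 ± 1.01 without the libraries that have Xist. Klf4 was at 3.03, 3.28 and 2.60 and 0.903, 0.737 and 0.861 CPM on ethanol and at 1.05, 0.547 and 0.956 and 1.89, 2.26 and 1.83 CPM pair-fed, a difference of -1.81 ± 0.43 (adjusted p = 0.195, limma), or -1.66 ± 0.54 without the Xist libraries. Cd300lf was at 5.70, 8.69 and 3.30 and 0.722, 1.10 and 1.21 CPM on ethanol and at 1.23, 0.912 and 2.49 and 3.03, 2.61 and 2.57 CPM pair-fed, a difference of -2.31 ± 0.45 (adjusted p = 0.0907, limma), or -2.45 ± 0.54 without them. Both diets' controls are separate libraries, and only 1 pair-fed control remains in the values without Xist.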

How the results depend on the processing

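The median change of the ER chaperone list on ethanol was between 0.80 and 1.26 log2 under all 19 alternatives run. The count of called genes on ethanol (12) was 1 with no filter, 4 with quantile normalization, 71 with array weights, 4 with a replicate block, 3 with only the ethanol-fed groups and 0 to 10 with each library left out, and 22 without the libraries with Xist, an alternative chosen after seeing the data. The array weights fit held all 12 of these genes, no filter held Hsph1, and quantile normalization and the replicate block each held Fam134b, Gpcpd1, Hsph1 and Pdia4. With only the 6 libraries compared 8 genes were called, and Fam134b, Gpcpd1 and Hsph1 were held. On the pair-fed diet the count (17) was 33 with array weights, 29 with edgeR, 2 without the Xist libraries and 5 to 86 with each library left out, the 86 without control replicate 1. For the difference between diets (0) it was 1 with no filter, 9 with array weights, 3 without the Xist libraries and 0 to 27 with each library left out. Among named genes the sign turned with 1 library left out for Cela1 (range -0.13 to 0.28, negative without control replicate 3 at -0.09 or overexpression replicate 2), Ctgf (-0.91 to 0.13, positive without overexpression replicate 2) and Wwtr1 (-0.092 to 0.30, negative without overexpression replicate 1). The causes of these shifts were not tested. Genes that did not reach 1 CPM in 3 libraries are outside the reported counts.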

Other observations

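Genes known to differ between the sexes in mouse liver gave 0 calls between the ethanol-fed groups, all 6 libraries of which have Ddx3y and little Xist. Cux2, a transcription factor of female liver, was at 25.5, 35.5 and 14.1 CPM in controls and 1.81, 5.89 and 10.3 CPM with overexpression, all lower, a change of -2.02 ± 0.50 log2 (adjusted p = 0.138, limma). On the pair-fed diet Cux2 fell by 4.24 ± 0.50 (adjusted p = 0.000761, limma), a value that rests on controls with Xist, and was -3.12 ± 0.63 without them (adjusted p = 0.225, limma). Mup20, a male urinary protein, overlapped at 767, 142 and 437 CPM in controls and 791, 1999.8 and 587 CPM with overexpression, a change of 1.43 ± 0.76. Of the sex-linked and sex-biased list 14 of 19 members were higher on ethanol, with a median of 0.23 and 1 at an unadjusted p under 0.05 (8.84% of all genes). Groups overlapped for 16 of the 19, and for 9965 of the 11720 genes tested.

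Clock, respiratory and proteasome genes gave 0 calls on ethanol. Dbp, a clock output factor, was at 38.1, 11.2 and 22.9 and 36.7, 54.7 and 54.1 CPM, a change of 1.11 ± 0.45, and Nfil3, its antagonist, had -0.80 ± 0.34, in a list with 11 of 20 members higher (median 0.02). Oxidative phosphorylation genes had 17 of 43 members higher and a median of -0.03, with Atp5d of the ATP synthase at -0.21 ± 0.15 and Cox7b of complex IV at -0.24 ± 0.18. Proteasome genes had 26 of 34 members higher and a median of 0.09, with Psmd14, a deubiquitinase of the lid, at 0.45 ± 0.28 and Psmb10 of the immunoproteasome at -0.55 ± 0.23.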
